A study of Mus musculus with 6 samples.

Results

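Macrophages in the arterial wall take up modified lipoproteins through scavenger receptors, split their cholesterol esters in lysosomes, store the surplus as droplets and export free cholesterol to apolipoproteins and high-density lipoprotein. When uptake exceeds export they fill with droplets and become foam cells, the hallmark cell of the atherosclerotic lesion. A lipid-laden macrophage state marked by the lipid-sensing receptor Trem2 is a known part of such lesions. The genes described here are 31 members of this programme, found as every non-control probe of the array whose gene name equals a member. They are 31 of 34821 distinct gene names on the array, and 39 of 55681 probes. The members were taken apart by role into uptake, efflux, lysosome and ester hydrolysis, droplet and carriers, the Trem2 signature, and secreted proteins.

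RNA came from the aortic arch of female mice with the strain label C57BL/6, 1 array per mouse and 3 mice per group. All recipients were Mir21+/+, were irradiated with 2 X-ray fractions of 5 Gy within 4 h and were given bone marrow of Mir21–/– donors (BM Mir21 KO, below knockout marrow or chimeras) or of Mir21+/+ donors (BM Mir21 WT, below wild-type marrow or chimeras). A high-fat diet was fed for 12 weeks, starting 3 weeks after irradiation. The vessel wall and any host cell that outlived irradiation were thus Mir21+/+ in both groups. The sources used here give no degree of chimerism, no age and no allele other than that of Mir21. The question addressed by the comparison is which arch transcripts depend on Mir21 in marrow-derived cells. No probe carried the name Mir21 or Mir21a (0 probes), so these arrays hold no check of the deletion.

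Every level below is a log2 signal set against the 75th percentile of its array, and each difference (knockout minus wild-type) carries the standard error from limma. P-values set each difference against the spread among these 6 mice. For that spread limma takes the same variance in both groups and draws it toward that of all tested probes. Between 66.4% and 74.4% of spots per array lay well above background, fewest on knockout replicate 3, and 0 were saturated. Wild-type arrays filled slide row 1 and knockout arrays row 2 of a single slide, so the row on the slide cannot be told apart from the marrow genotype. All 10 smooth muscle and all 10 endothelial markers were bright enough to test, as were all 8 of cardiac muscle. So were all 14 white adipocyte, all 10 brown adipocyte and all 11 T cell and thymocyte markers. Being bright enough to test therefore does not identify the tissue, which is given as labelled. Whole arch was measured, so fewer cells of a type and less RNA per cell cannot be told apart in any value below.

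No foam cell member differed beyond the spread between mice. Of the 31 members, 30 had a probe bright enough to test, all but Olr1, and 0 of the 30 passed the adjusted test (limma), beside 0.00261% of all 38339 probes tested. The smallest adjusted p among them was 0.62, for Cd36. At an unadjusted p below 0.05, 0 members were higher and 0 lower, beside 4.44% and 4.27% of all probes. In 0 members did the knockout arrays lie entirely above or below the wild-type arrays, beside 7.58% of probes above and 6.14% below. By sign alone, 21 members read higher and 9 lower, with a median difference of 0.13 beside 0.02 over all tested probes. That median was -0.22 without knockout replicate 2 and 0.45 without knockout replicate 3. The 95% intervals of the differences had a median half-width of 1.12 on the log2 scale, and 12 of the 30 were narrower than 1.

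**Figure D1:**
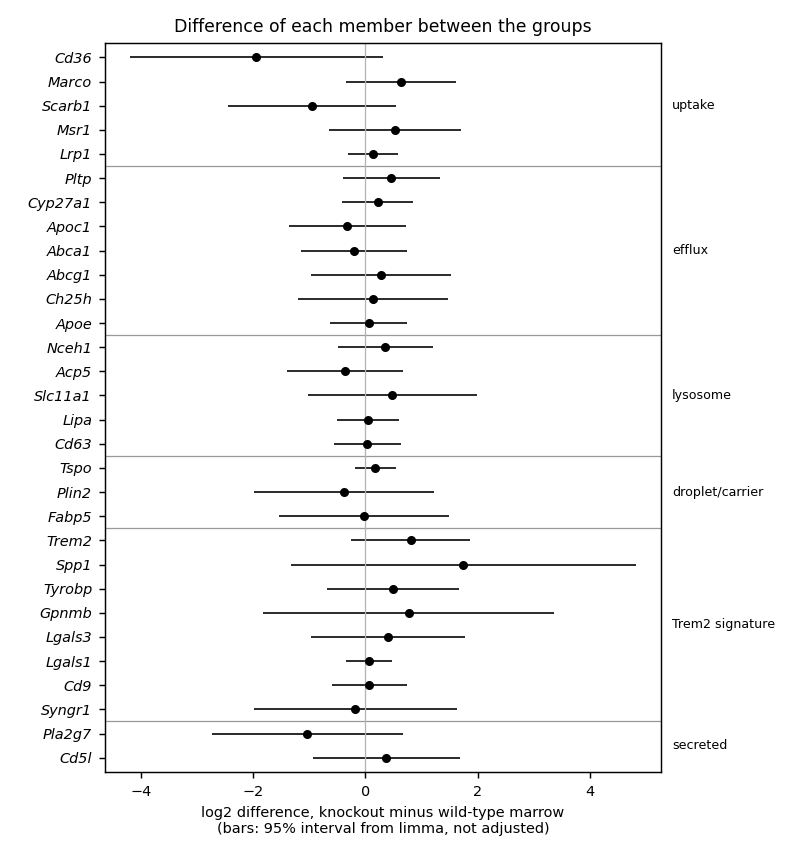
Log2 difference between knockout and wild-type marrow for each of the 30 tested members, ordered by role, with the 95% interval of limma. Every interval spans 0, from the narrowest for Tspo to the widest for Spp1.

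Uptake genes gave the largest negative difference of the whole programme and no common direction, with 3 members higher, 2 lower and a median of 0.14. Cd36, a scavenger receptor for oxidised low-density lipoprotein and fatty acids that adipocytes also carry, read 3.72, 2.51 and 3.75 in wild-type chimeras, against 3.33, 1.72 and -0.92 in knockout chimeras. Knockout replicate 1 lay among the wild-type arrays, while replicates 2 and 3 lay below all of them. Its difference was -1.95 ± 0.96, or 3.85-fold by the means, with an interval from -4.20 to 0.31 (limma, adjusted p = 0.62). Scarb1, the receptor for high-density lipoprotein, had a similar order of arrays, at 1.49, 0.65 and 1.25 against 1.75, -0.22 and -0.999. Here knockout replicate 1 was the highest of all 6 arrays and replicates 2 and 3 the lowest, for a difference of -0.95 ± 0.64. A second, dimmer Scarb1 probe gave -0.62 ± 0.71.

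The class A scavenger receptors Marco and Msr1 bind modified lipoproteins and microbial surfaces. Marco read -0.66, -0.63 and -0.98 in wild-type chimeras, against -0.14, -1.03 and 0.81 in knockout chimeras, a difference of 0.64 ± 0.42. It was highest on knockout replicate 3 and lowest on knockout replicate 2, the reverse of the order in Abca1, Abcg1 and 7 other members. Msr1 read -1.98, -3.07 and -2.58 against -2.64, -0.86 and -2.58, so that knockout replicate 2 alone lay outside the wild-type range, and differed by 0.52 ± 0.50. A second Msr1 probe was well above background on 2 wild-type and 2 knockout arrays and was not tested. Olr1, the oxidised lipoprotein receptor LOX-1, was not well above background on any of the 6 arrays, so no difference is given for it.

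Lrp1, an endocytic receptor for remnant lipoproteins, was among the steadiest members, at 4.18 ± 0.06 and 4.32 ± 0.31 (SD, n = 3 per group), a difference of 0.14 ± 0.19. A dimmer probe named for the same gene gave -0.14 ± 0.15, the opposite sign. The first 30 of the 60 bases of these probes are shown because the reading depends on which is used, with the brighter probe at chromosome 10, 126975573 to 126975632, and the dimmer at 127026228 to 127026287, minus strand, mm9. A further Lrp1 probe was well above background on 1 array only.
Lrp1 brighter probe: tggggttagttcaggggaggtggagtcctc
Lrp1 dimmer probe: tttgcctttaggtatatgggccaaactgtc

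Efflux genes and apolipoproteins had differences from -0.32 to 0.46, with 5 of 7 higher, 2 lower and a median of 0.13. Single genes varied more than that within a group, with knockout arrays spanning 2.22 for Abcg1 and 2.31 for Ch25h. Abca1, which loads cholesterol onto lipid-poor apolipoprotein A-I, read 2.69, 1.85 and 2.48 in wild-type chimeras, against 2.31, 2.81 and 1.27 in knockout chimeras. Abcg1, which exports cholesterol to high-density lipoprotein, read 2.72, 1.73 and 1.97 against 2.40, 3.53 and 1.31. Both transporters are classical targets of the liver X receptors, and both were highest on knockout replicate 2 and lowest on knockout replicate 3. Their group differences were -0.21 ± 0.40 for Abca1 and 0.27 ± 0.54 for Abcg1, and neither passed (limma, adjusted p = 0.90 and 0.91).

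Apoe, the apolipoprotein that macrophages secrete to carry off cholesterol, was measured by 10 spots per array. It read 0.88, 0.48 and 0.56 in wild-type chimeras, against 0.58, 1.32 and 0.20 in knockout chimeras, a difference of 0.06 ± 0.29. The knockout arrays enclosed the wild-type arrays on both sides. Its neighbour Apoc1, an apolipoprotein of the same gene cluster, went the other way across the knockout arrays. Apoc1 read 3.63, 2.55 and 3.39 against 3.49, 1.92 and 3.18 and so was lowest on knockout replicate 2, for a difference of -0.32 ± 0.45.

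Pltp, the phospholipid transfer protein, had the highest difference of this role at 0.46 ± 0.37, from 1.90, 1.22 and 1.43 to 2.42, 2.38 and 1.13. Knockout replicates 1 and 2 lay above all wild-type arrays and replicate 3 below them. Cyp27a1, a mitochondrial sterol hydroxylase that yields an oxysterol ligand of the liver X receptors, read -2.56, -2.93 and -2.48 against -1.92, -2.49 and -2.91, a difference of 0.22 ± 0.27. Ch25h, which makes 25-hydroxycholesterol, was dim and not well above background on knockout replicate 3, and differed by 0.13 ± 0.58. It read -2.89, -2.91 and -3.76 against -2.58, -2.14 and -4.45, with both ends of the range in the knockout group.

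Lysosomal and ester-hydrolysing genes had a median of 0.05, with 4 of 5 higher and 1 lower. Lipa, the acid lipase that frees cholesterol from lipoprotein esters in the lysosome, read 2.47, 2.55 and 2.27 in wild-type chimeras, against 2.42, 2.93 and 2.06 in knockout chimeras. Knockout replicate 1 lay within the wild-type range, replicate 2 above it and replicate 3 below it. The interval of the Lipa difference of 0.05 ± 0.24 ran from -0.51 to 0.60. Nceh1, a neutral cholesterol ester hydrolase, read 1.90, 1.86 and 1.34 against 1.60, 2.89 and 1.67. Only knockout replicate 2 lay outside the wild-type range of Nceh1, and its difference was 0.36 ± 0.36.

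Slc11a1, a metal transporter of the phagosome membrane, also had its high array there, at 0.68, -0.38 and 0.12 against 0.06, 2.21 and -0.41, a difference of 0.48 ± 0.65. Acp5, the tartrate-resistant acid phosphatase of macrophages and osteoclasts, had instead a single low array. It read 5.90, 5.19 and 5.72 in wild-type chimeras, against 5.69, 5.85 and 4.18 in knockout chimeras, and its tested probes gave -0.36 ± 0.44 and -0.41 ± 0.45. Cd63, a tetraspanin of late endosomes, differed by 0.03 ± 0.25, with the knockout arrays on both sides of the wild-type arrays.

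Droplet and carrier genes differed in how much they varied. Plin2, which coats lipid droplets, read 5.17, 4.10 and 5.26 in wild-type chimeras, against 5.44, 5.13 and 2.78 in knockout chimeras. Fabp5, a fatty acid carrier of macrophages, read 5.46, 4.60 and 5.18 against 5.15, 6.44 and 3.57. For both, knockout replicate 3 was the lowest of all 6 arrays, and Fabp5 was 7.28-fold higher on knockout replicate 2 than on replicate 3. Their group differences were -0.39 ± 0.69 and -0.03 ± 0.65. Tspo, a cholesterol-binding protein of the outer mitochondrial membrane, read 4.44, 4.36 and 4.48 against 4.78, 4.61 and 4.43. Its difference of 0.18 ± 0.16 had the narrowest interval of the members, from -0.19 to 0.55.

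The Trem2 signature had the highest median of any role, 0.45, with 7 of 8 members higher and 1 lower, none past the test. Without knockout replicate 2 that median was -0.03, and without knockout replicate 3 it was 0.84. Trem2 read 3.38, 2.90 and 2.25 in wild-type chimeras, against 3.32, 4.62 and 3.00 in knockout chimeras. Knockout replicate 2 lay above every other array, and replicates 1 and 3 lay within the wild-type range. The difference of 0.81 ± 0.46, or 1.75-fold, had an interval from -0.26 to 1.87 (limma, adjusted p = 0.65). Tyrobp, the adaptor that passes on the Trem2 signal, read 3.24, 2.39 and 2.41 against 2.77, 4.35 and 2.39, a difference of 0.49 ± 0.50.

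Spp1 (osteopontin) and Gpnmb, a transmembrane glycoprotein of lipid-laden macrophages, were the most variable members. Spp1 read 1.75, -1.37 and -1.40 in wild-type chimeras, against -0.33, 4.29 and 0.25 in knockout chimeras. The highest array of each group stood well above the other arrays of that group, wild-type replicate 1 and knockout replicate 2. The Spp1 difference of 1.74 ± 1.32 was the largest positive one of all members, yet its interval ran from -1.33 to 4.82 (limma, adjusted p = 0.73). Gpnmb read 3.26, 0.64 and 1.43 against 1.34, 5.14 and 1.17, with the same high arrays and a difference of 0.77 ± 1.11. Between knockout replicates 2 and 3 the signal differed 16.5-fold for Spp1 and 15.6-fold for Gpnmb.

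Of the rest of the signature, Lgals3 (galectin-3) read 5.44, 4.37 and 4.22 against 4.50, 6.44 and 4.31 and was likewise highest on knockout replicate 2, with a difference of 0.40 ± 0.59. Lgals1 (galectin-1) and the tetraspanin Cd9 were not, and lay at 0.07 ± 0.18 and 0.07 ± 0.28 with their highest value on knockout replicate 3 and their lowest on knockout replicate 1. Lgals1 read 6.84, 6.97 and 6.94 against 6.72, 7.04 and 7.20, and Cd9 5.87, 6.13 and 5.69 against 5.39, 6.04 and 6.47. Syngr1, a vesicle membrane protein, read 0.83, -1.01 and 0.45 against 0.74, 0.83 and -1.85, with a difference of -0.18 ± 0.77, and a second Syngr1 probe was not well above background on any array.

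The secreted pair split. Pla2g7, the lipoprotein-associated phospholipase A2, read 2.48, 1.17 and 2.36 in wild-type chimeras, against 1.91, 1.79 and -0.81 in knockout chimeras, a difference of -1.04 ± 0.73. Knockout replicate 3 alone lay below the wild-type range. A dimmer Pla2g7 probe gave -0.19 ± 0.50, so the size of this difference depends on the probe. The brighter lies at chromosome 17, 43749032 to 43749091, and the dimmer at 43731745 to 43731804, plus strand, mm9, and the first 30 of their 60 bases are shown for that reason. Cd5l, an apoptosis inhibitor secreted by macrophages, read 5.64, 4.91 and 4.72 against 4.80, 6.85 and 4.75, a difference of 0.38 ± 0.56.
Pla2g7 brighter probe: ttacccaaataagcattttttaaatataca
Pla2g7 dimmer probe: gtactacccagctcaagatcaaggtcgcct

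**Figure D2:**
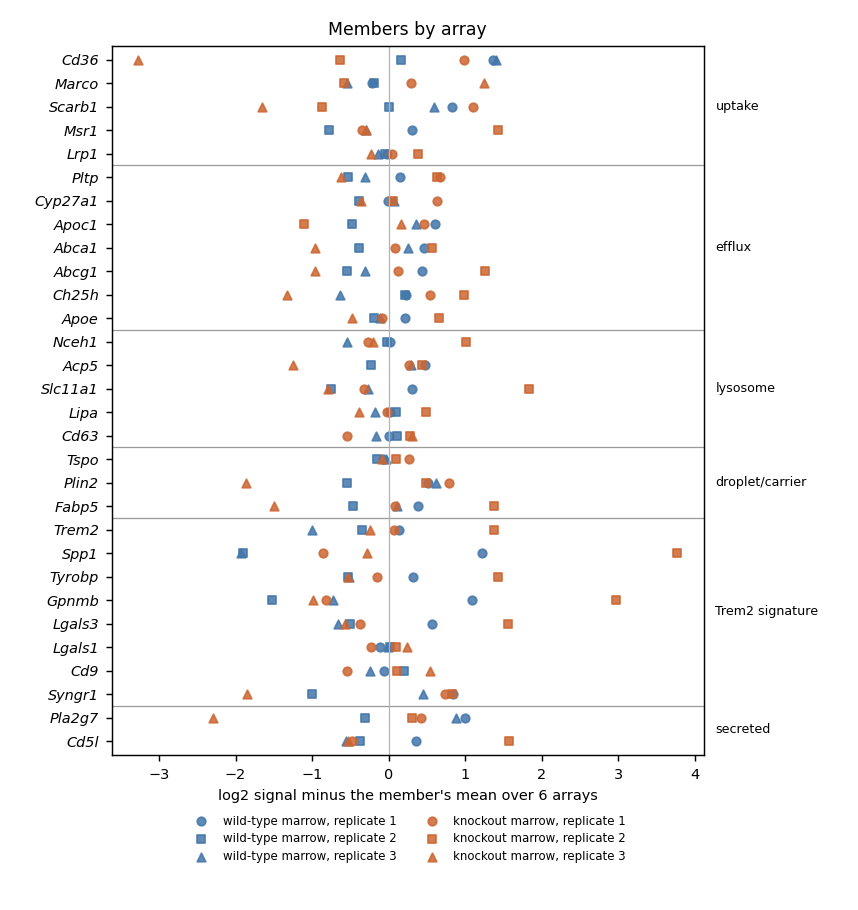
Log2 signal of each tested member on every array, as its deviation from the member's mean over the 6 arrays. Colours mark the marrow genotype and shapes the replicate, and knockout replicate 2 is the highest array for 16 of the 30 members and knockout replicate 3 the lowest for 16.

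The members varied more among the knockout arches than among the wild-type arches. In 30 of 30 members the SD over the knockout arrays was larger than over the wild-type arrays, beside 68.5% of all tested probes. The trait was not particular to the members. It held for 14 of 14 white adipocyte, 10 of 10 brown adipocyte and 8 of 8 cardiac muscle markers. Among smooth muscle markers it held for 7 of 10, and among neutrophil markers for 3 of 8. The median SD of the members was 0.46 in wild-type chimeras, against 0.97 in knockout chimeras, beside 0.19 and 0.27 over all tested probes. These are descriptions of 3 mice per group, the members share those mice, and the difference in spread was not tested.

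**Figure D3:**
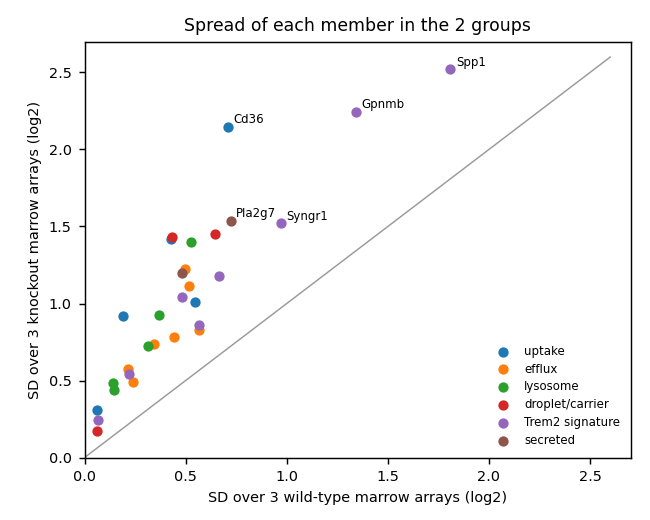
SD of each tested member over the 3 wild-type arrays (horizontal, log2) and over the 3 knockout arrays (vertical, log2), coloured by role. All 30 points lie above the line of equal spread, with Spp1, Gpnmb and Cd36 the highest.

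Knockout replicates 2 and 3 lay at opposite ends for many members. Knockout replicate 2 was the highest of all 6 arrays for 16 of 30 members (53.3%, beside 14.1% of all tested probes). Knockout replicate 3 was the lowest for 16 of 30 (53.3%, beside 18.3%). Both held at the same time for 9 members, Tyrobp, Abca1, Abcg1, Ch25h, Apoe, Fabp5, Slc11a1, Lipa and Lrp1. Neither held for Lgals1, Cd9, Cd63 and Marco, which were highest on knockout replicate 3, for Apoc1, which was lowest on knockout replicate 2, or for Cyp27a1 and Tspo, which were highest on knockout replicate 1. The mean deviation of the members from the average array was 0.38, -0.38 and -0.14 in the wild-type chimeras. In the knockout chimeras it was 0.08, 0.76 and -0.70.

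On average, macrophage markers that are not members took the same order across the arrays. Of 22 such markers 21 were tested, all but Cd163, and their mean deviation was 0.21, -0.36 and -0.19 in wild-type chimeras, against 0.09, 0.88 and -0.63 in knockout chimeras. Among the 21, 17 were highest on knockout replicate 2, 15 were lowest on knockout replicate 3 and 17 had the larger SD with knockout marrow. Their summed signal, in units of the array's 75th percentile, ran from 151 to 184 in wild-type and from 211 to 308 in knockout chimeras. That sum gives most weight to bright probes, above all Itgam, at 6.13, 6.78 and 6.23 against 6.88, 6.62 and 7.26, highest on knockout replicate 3. In the mean deviation, which weights each marker alike, knockout replicate 3 was instead the lowest of the 6 arrays. The gap between the groups in the sum therefore does not show more macrophage RNA in each knockout arch. Of these markers, 0 passed the adjusted test (limma), 2 were higher at an unadjusted p below 0.05, and 15 read higher and 6 lower by sign. The Trem2 signature followed them with a wider swing, at 0.50, -0.70 and -0.58 against -0.27, 1.52 and -0.46. A fit with the macrophage marker mean as a covariate gave 0.55 ± 0.29 for Trem2, 1.01 ± 0.85 for Spp1, 0.10 ± 0.55 for Gpnmb, 0.18 ± 0.23 for Tyrobp and -0.45 ± 0.20 for Abca1. The same fit gave -2.34 ± 0.86 for Cd36, -1.44 ± 0.48 for Pla2g7 and 0.88 ± 0.24 for Marco, its members at an unadjusted p below 0.05 (limma). Each lay farther from 0 than without the covariate, as did Abca1, Plin2, Fabp5, Acp5, Syngr1, Scarb1 and some other members. The covariate comes from markers of the same cell type on the same 6 arrays. The part of macrophage content in the members' values was not tested.

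Fat-cell markers also differed between the knockout arrays, in another order. All 14 white adipocyte markers were tested, with mean deviations of 0.98, 0.20 and 1.27 in wild-type chimeras, against 1.26, -1.17 and -2.53 in knockout chimeras. Of them, 0 passed the adjusted test (limma), and 1 read higher and 13 lower, 4 of these at an unadjusted p below 0.05. The 10 brown adipocyte markers gave 0.99, 0.25 and 1.10, against 1.20, -1.30 and -2.25. Summed signals ran from 519 to 1086 for white markers in wild-type and from 89.3 to 967 in knockout chimeras, and from 528 to 1109 and 75.9 to 1138 for brown markers. Cd36 and Scarb1 shared this order, with knockout replicates 2 and 3 the lowest of 6 arrays. Plin2, Pla2g7 and Acp5 were also lowest on knockout replicate 3, but so was the macrophage marker mean. On knockout replicate 2 these 3 genes lay within the wild-type range, where the fat-cell markers lay below it. With the adipocyte marker mean as a covariate, Cd36 read -0.17 ± 0.45, Scarb1 0.27 ± 0.19, Pla2g7 0.07 ± 0.62 and Plin2 0.71 ± 0.54. The adipocyte covariate differs between the groups themselves, so its part and that of the marrow genotype cannot be told apart here.

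**Figure D4:**
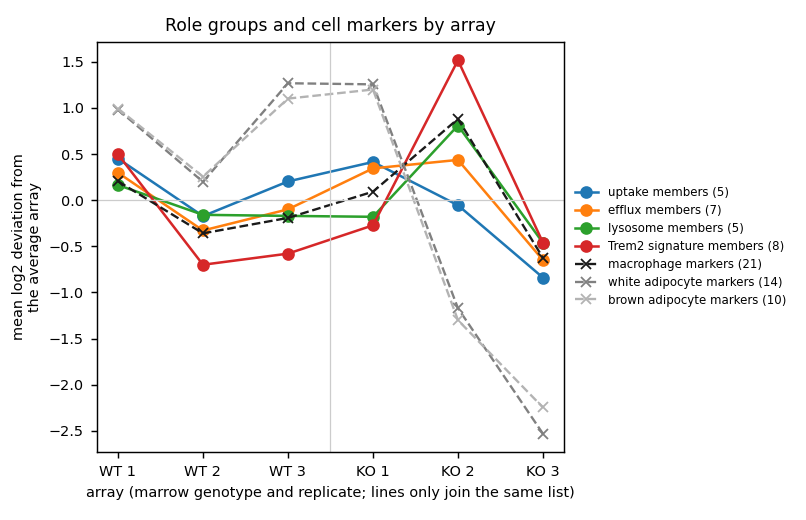
Mean log2 deviation from the average array, for members of 4 roles (solid) and for macrophage and adipocyte markers (dashed), on each of the 6 arrays. The Trem2 signature and the macrophage markers are highest on knockout replicate 2 (1.52 and 0.88), where the white adipocyte markers are at -1.17.

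Leaving out single knockout arrays turned the sign of many members. Without knockout replicate 2, 14 of the 30 differences changed sign, among them Gpnmb (-0.52), Lgals3 (-0.28), Abcg1 (-0.29) and Slc11a1 (-0.32). The Trem2 difference was then 0.32 and that of Spp1 0.30. Without knockout replicate 3, 8 changed sign, among them Abca1 (0.22), Plin2 (0.45) and Fabp5 (0.71), and the Cd36 difference was -0.80. Over the 6 fits that leave out 1 array each, 8 members kept their sign, namely Cd36, Marco, Pla2g7, Pltp, Scarb1, Spp1, Trem2 and Tspo, but their size varied. Without knockout replicate 3, Pla2g7 read -0.16, Marco 0.17 and Scarb1 -0.36. Pltp read 0.24 without knockout replicate 1 and 0.26 without knockout replicate 2. The ranges over these fits were -2.92 to -0.80 for Cd36, 0.30 to 2.79 for Spp1, 0.32 to 1.13 for Trem2 and 0.09 to 0.27 for Tspo. In each of these fits 0 members passed the adjusted test (limma), and between 0 and 3 had an unadjusted p below 0.05. The lowest adjusted p of a member in them was 0.12, for Scarb1 without knockout replicate 1.

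**Figure D5:**
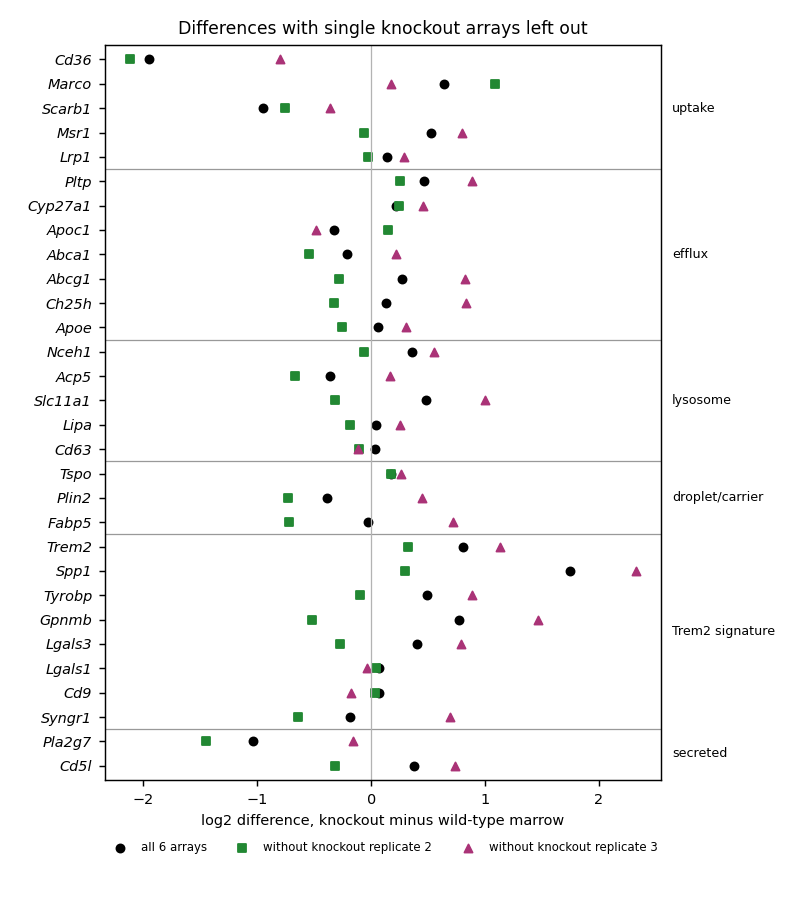
Log2 difference of each tested member with all 6 arrays, without knockout replicate 2 and without knockout replicate 3. Gpnmb lies at 0.77, -0.52 and 1.46 in these fits and Cd36 at -1.95, -2.12 and -0.80.

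Other genes of the pathway, none of them members, were read from the same fit. Of 76 listed genes 73 were tested, and 0 passed the adjusted test (limma). At an unadjusted p below 0.05, 2 were higher and 3 lower, beside 4.44% and 4.27% of all tested probes. Mylip, a ubiquitin ligase and liver X receptor target, was the lowest in p. It read 2.42, 2.10 and 2.34 in wild-type chimeras, against 1.53, 1.68 and 1.24 in knockout chimeras. All knockout arrays thus lay below all wild-type arrays, as they did for 6.14% of all tested probes. The Mylip difference was -0.81 ± 0.18 (limma, adjusted p = 0.40). In the same list of 14 nuclear receptors and targets, Srebf1 read -0.75 ± 0.37 and Ppara -1.47 ± 0.80, both lowest on knockout replicate 3.

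Among 11 tested genes of ester storage, 3 read higher and 8 lower, with a median of -0.97. Lipe, Pnpla2, Lpl and Dgat2 of this list are also counted among the white adipocyte markers. The list's mean deviations were 0.60, -0.08 and 0.66 in wild-type chimeras, against 0.69, -0.50 and -1.36 in knockout chimeras, lowest on the same array as those markers. The part of fat-cell content in this list was not tested. Plin3, a droplet coat protein, read 4.49, 4.27 and 4.46 against 4.08, 3.84 and 3.96, a difference of -0.45 ± 0.16. All its knockout arrays lay below all wild-type arrays, beside 6.14% of all tested probes. Soat2, which esterifies cholesterol, read -2.55, -2.73 and -3.18 against -1.92, -2.47 and -2.25, a difference of 0.60 ± 0.23. Its knockout arrays all lay above all wild-type arrays, beside 7.58% of all tested probes. Pnpla2, the triglyceride lipase of adipocytes, read -1.37 ± 0.56 and had its lowest values on knockout replicates 2 and 3.

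Lysosomal genes outside the members had a median of 0.14, with 18 of 26 higher. Lowest in p were Laptm5 (0.69 ± 0.28, also counted among the macrophage markers), Stard3 (-0.47 ± 0.21) and Gla (0.24 ± 0.19), the lysosomal alpha-galactosidase. For Stard3, a late endosomal cholesterol-binding protein, all knockout arrays lay below all wild-type arrays, beside 6.14% of all tested probes. Other uptake receptors, among them Cd68 and Mrc1 of the macrophage markers, had a median of 0.05 over 13 genes. Among them, Stab2 read 0.74 ± 0.41 and Megf10 0.32 ± 0.21. The 9 tested partners and relatives of Trem2 had a median of 0.15, with Treml2 at 0.74 ± 0.35, the platelet receptor Treml1 at 1.16 ± 0.60 and Trem1 at -0.17 ± 0.16.

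Promoters are shown for the members with the largest differences in either direction by size of the estimate, Spp1 and Cd36, and for Trem2 and Gpnmb of the signature that Spp1 belongs to. RefSeq starts of GRCm38.p6 were found for 23 of the 31 members, with 28 starts in all, and the 250 bases before each start were searched on both strands. The strings were GAGGAA, the core site of the macrophage factor PU.1, and TGANTCA, the AP-1 site with its central base left free. That base is C or G in the AP-1 consensus. The others were AGGTCA, the core site of nuclear receptors, and CACGTG, the E-box bound by TFEB and other helix-loop-helix factors. No string overlaps another in the 4 windows shown, and matches are in capitals. GAGGAA was present before 12 of the 28 member starts (42.9%), beside 23.3% of all 32851 starts in the table. The shares were 7.14% beside 6.75% for TGANTCA, 21.4% beside 14.0% for AGGTCA and 7.14% beside 6.02% for CACGTG, the last before Abca1 and Nceh1. A match is a string in this window and does not show binding.

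The Trem2 window (chr17:48346151-48346400, plus strand) held AGGTCA and GAGGAA on the other strand and a TGANTCA match just before the start. That match is TGAATCA, whose central base is not that of the AP-1 consensus. The Gpnmb window (chr6:49036268-49036517, plus strand) held none of the 4 strings, and the upstream Spp1 start (chr5:104434861-104435110, plus strand) held GAGGAA. The Cd36 window (chr5:17835897-17836146, minus strand) held AGGTCA on the other strand.
Trem2: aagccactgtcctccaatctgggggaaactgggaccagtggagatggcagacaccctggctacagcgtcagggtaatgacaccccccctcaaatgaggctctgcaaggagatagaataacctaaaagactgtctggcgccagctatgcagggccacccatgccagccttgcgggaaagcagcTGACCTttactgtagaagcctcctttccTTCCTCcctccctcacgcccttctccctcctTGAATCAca
Gpnmb: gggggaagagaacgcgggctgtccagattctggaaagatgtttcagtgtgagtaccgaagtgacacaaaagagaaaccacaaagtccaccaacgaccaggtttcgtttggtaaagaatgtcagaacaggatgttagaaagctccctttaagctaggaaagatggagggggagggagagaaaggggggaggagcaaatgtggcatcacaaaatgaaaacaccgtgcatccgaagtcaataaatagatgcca
Spp1: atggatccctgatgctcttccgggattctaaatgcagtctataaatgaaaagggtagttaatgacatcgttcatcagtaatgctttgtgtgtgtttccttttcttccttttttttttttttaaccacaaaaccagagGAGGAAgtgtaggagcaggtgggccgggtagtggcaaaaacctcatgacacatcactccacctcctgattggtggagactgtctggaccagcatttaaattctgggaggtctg
Cd36: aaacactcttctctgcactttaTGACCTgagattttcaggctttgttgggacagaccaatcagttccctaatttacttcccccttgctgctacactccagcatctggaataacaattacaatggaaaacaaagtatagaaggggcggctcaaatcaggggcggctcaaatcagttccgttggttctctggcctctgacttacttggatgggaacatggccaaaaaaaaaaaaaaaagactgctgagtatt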

How the data were processed

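Per the file headers, the authors read 1-colour arrays with Agilent Feature Extraction 10.7.3.1 (probe positions on mm9). The deposited processed signal is an intensity, background-subtracted and spatially detrended, with low values replaced by a surrogate. Between arrays it is not normalized. Per the labels, 100 ng of Cy3-labelled RNA was used, at an RNA integrity above 7.5. Here log2 values were centred on the 75th percentile of each array's non-control spots. Outlier spots were dropped and repeated spots averaged. Tests used the 38339 probes that were well above background on all 3 arrays of either group, with lmFit and eBayes (limma 3.58.1, R 4.3.3), two-sided. P-values were adjusted by Benjamini-Hochberg across these probes, at 0.05. The fit was also run on simulated data with independent probes and equal spread in both groups. The members here had unequal spread, so that run is no check of their values. The brightest tested probe stands for a gene. The members and lists were chosen with earlier results of these data known. Each member is named. Values on every array are given for the 3 smallest p of each role and for Trem2, Cd36, Abca1, Abcg1, Apoe, Spp1, Gpnmb and Lipa, and the 3 smallest p of each pathway list are named, except 1 gene that is not reported here. Alternatives covered background correction, normalization, the filter, the authors' series table, the variance model, array weights, a replicate block, marker covariates, other probes and leaving out each array. Where probes lie relative to exons was not analysed here, so probes are shown in part.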

Additional observations from a re-analysis of the deposited data

How the results depend on the processing

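In 0 of the 17 alternatives did a member pass the adjusted test. Leaving out 1 array each, the median ran from -0.22 to 0.45 over all members, -0.03 to 0.84 for the Trem2 signature, -0.25 to 0.45 for efflux, -0.72 to 0.45 for droplet and carrier genes, -0.18 to 0.31 for lysosomal genes, -0.88 to 0.29 for secreted proteins and -0.06 to 0.17 for uptake, each with its lowest value without knockout replicate 2 and its highest, apart from the lysosomal genes, without knockout replicate 3. Over all members the median was 0.33 with the adipocyte covariate, 0.23 with array weights and 0.0484 with the macrophage covariate. For the Trem2 signature it was 0.85 with array weights and 0.12 with the macrophage covariate. Members at an unadjusted p below 0.05 numbered 0 as reported, 1 with normexp (Cd36), 1 with the replicate block (Cd36), 3 with array weights (Cd36, Scarb1, Trem2), 3 with the adipocyte covariate (Cyp27a1, Pltp, Cd9), 3 with the macrophage covariate (Cd36, Pla2g7, Marco) and 0 to 3 when single arrays were left out. Same-numbered arrays correlated at 0.12, 0.05 and -0.28 in their deviations from the group means, so the numbers were not taken to pair the mice, and the replicate block left 0 members past the adjusted test.

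Leaving out 1 array turned the sign of 22 of the 30 members in at least 1 fit, among them Gpnmb (0.77 to -0.52). In the other alternatives, signs turned for members near 0 and, with the adipocyte covariate, for members as far from it as Pla2g7 (-1.04) and Scarb1 (-0.95). Normexp gave -0.0004 for Lipa and -0.0097 for Cd63, quantile normalization 0.0433 for Fabp5, array weights 0.19 for Fabp5, and the other Lrp1 probe -0.14. The adipocyte covariate gave -0.13 for Lgals1, -0.41 for Cd9, 0.90 for Syngr1, 0.0407 for Apoc1, 0.19 for Abca1, 0.71 for Plin2, 0.49 for Fabp5, 0.22 for Acp5, -0.37 for Cd63, 0.0686 for Pla2g7 and 0.27 for Scarb1. The macrophage covariate gave -0.0756 for Abcg1, -0.19 for Ch25h, -0.12 for Apoe and -0.0685 for Lipa. The cause was not tested.

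Leaving out 1 array each, differences ran from -1.51 to -0.16 for Pla2g7, -1.74 to -0.36 for Scarb1, 0.17 to 1.09 for Marco, 0.24 to 0.89 for Pltp, -0.55 to 0.22 for Abca1, -0.29 to 0.83 for Abcg1, -0.67 to 0.17 for Acp5, -0.64 to 0.15 for Apoc1, -0.25 to 0.31 for Apoe, -0.32 to 0.73 for Cd5l, -0.11 to 0.31 for Cd63, -0.18 to 0.36 for Cd9, -0.33 to 0.83 for Ch25h, -0.0396 to 0.45 for Cyp27a1, -0.72 to 0.71 for Fabp5, -0.52 to 1.51 for Gpnmb, -0.0363 to 0.20 for Lgals1, -0.28 to 0.79 for Lgals3, -0.18 to 0.25 for Lipa, -0.0242 to 0.28 for Lrp1, -0.0618 to 0.83 for Msr1, -0.0594 to 0.58 for Nceh1, -0.88 to 0.45 for Plin2, -0.32 to 0.996 for Slc11a1, -0.73 to 0.69 for Syngr1 and -0.10 to 0.88 for Tyrobp. With 3 arrays per group, and dim probes such as Ch25h near background, the number of arrays limits precision.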
